A study of Mus musculus with 50 samples.

Results

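The 7 genes of the subcortical maternal complex described here, Nlrp5, Nlrp2, Tle6, Ooep, Khdc3, Padi6 and Zbed3, were followed in single mouse oocytes with and without a conditional knockout of Zfp36l2. They were chosen by name, from their known place in the complex, and all 7 are among the 16614 rows of the deposited count table. The subcortical maternal complex is a multiprotein assembly that mouse oocytes build during growth and that lies just beneath the plasma membrane of the egg and early embryo. Its mRNAs are made in the growing oocyte and its proteins persist into cleavage. Mothers that lack one of its core genes produce embryos that arrest or fail during early cleavage. The knocked-out gene encodes ZFP36L2, a zinc-finger protein that recognises AU-rich sequence after the stop codon of target mRNAs and hastens their degradation.

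The series holds 50 oocytes at the germinal vesicle stage, the state of meiotic arrest that precedes ovulation, each sequenced as its own library. The 26 control oocytes came from 4 floxed mice (F/F, carrying the targetable Zfp36l2 allele) and numbered 5, 7, 7 and 7. The 24 knockout oocytes (cKO-Zfp36l2) came from 4 mice and numbered 1, 7, 8 and 8. Both genotypes were females 5 weeks old, injected 46 hours before collection with 10 IU of PMSG, a hormone that stimulates ovarian follicles. Oocytes fully enclosed in cumulus cells were taken in M2 medium with 5 µM milrinone, which holds them in arrest, and the cumulus cells and zona pellucida were then removed. The labels do not say which promoter drives Cre or from which cells the allele is removed.

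Library totals were 1746007 to 6120317 counts in floxed oocytes (median 4761241) and 4332108 to 6233840 in knockout oocytes (median 5211210). Knockout mouse 1 is represented by 1 oocyte. The mouse was taken as the replicate: counts of its oocytes were summed, and p-values measure the spread between these 8 mice. Zfp36l2 itself had 0 to 47 counts per floxed oocyte (median 13) and 0 to 38 per knockout oocyte (median 6.5), and the difference did not pass the edgeR quasi-likelihood test (log2 fold change −0.78, adjusted p = 0.208). A count over the whole gene does not check the deletion. Oocyte markers were present in both genotypes: the 9 fixed markers, among them the zona pellucida genes Zp1, Zp2 and Zp3, summed to 3777 to 4813 CPM (a gene's count scaled to equal library totals) in floxed mice and 3808 to 4342 CPM in knockout mice. CPM gives shares of a library, so an oocyte with less mRNA in all would not be told from one with more.

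The untranslated regions of the members are shown first because the knocked-out protein binds AU-rich elements. The core letters ATTTA were searched on the sense strand of the annotated 3′ untranslated region (GENCODE annotation of mm10). Nlrp5, Nlrp2, Khdc3 and Zbed3 held 1 match each, Ooep held 8, and Tle6 and Padi6 held none. The longer form TATTTAT, which contains ATTTA, occurred in Ooep and in Zbed3, 1 match each. For comparison, 67.1% of 13796 annotated regions held ATTTA and 27.7% held TATTTAT. Among the 2697 regions shorter than 300 bases, these shares were 23.5% and 5.01%. The regions of Nlrp5 (109 bases), Tle6 (130), Nlrp2 (189), Padi6 (221) and Khdc3 (246) were in that short class, while those of Zbed3 (1085) and Ooep (1446) were not. One site per gene is printed 5′ to 3′ on the gene's strand, with the matched motif in capitals; a match is a description of the letters and not of binding. The coordinates of these stretches in mm10 are chr7:23441899-23441922 (+) for Nlrp5, chr7:5298667-5298695 (−) for Nlrp2, chr9:78376149-78376177 (−) for Ooep, chr9:73104395-73104423 (+) for Khdc3 and chr13:95337820-95337841 (+) for Zbed3.
Nlrp5: aataaacacagcATTTAgaaaagc
Nlrp2: gcaccctctctgATTTAttggcatctgag
Ooep: accagaatttgTATTTATtagcctatact
Khdc3: tttgcaaacacaATTTAaagtattctaat
Zbed3: taataaactttTATTTATctgc

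The Nlrp2 site lies 53 bases after the stop codon and the Khdc3 site 215 bases after it. The Nlrp5 and Zbed3 matches lie near the end of their regions, 98 and 1076 bases after the stop codon. Of these 5 genes with a match, Nlrp2 was lower in knockout mice by the test described next, and the other 4 did not pass it.

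Among the mRNAs of the complex, Nlrp2 was lower in knockout oocytes and no other member was called. Of the 7 members, 1 fell, 0 rose, and 6 did not pass edgeR's quasi-likelihood test at a Benjamini-Hochberg adjusted p under 0.05 over 15029 genes. The same counts held at an unadjusted p under 0.05 and with DESeq2. The background was high: 27.6% of all genes tested were called, 14.4% as higher and 13.2% as lower in knockout mice. Among the 3399 genes averaging at least 100 CPM, to which all 7 members belong, 25.6% were called, 15.8% as lower. One lower call in 7 members (14.3%) is near that background. Of the 7 fold changes, 6 were negative, as were 62.4% of those of the abundant genes, and the median log2 fold change of the members was −0.11 beside −0.08 for abundant genes. These signs were not stable: with the mean oocyte total as a covariate, Nlrp5 (0.043), Tle6 (0.0070), Padi6 (0.016) and Zbed3 (0.23) were positive on the log2 scale, and Nlrp2 stayed negative at −0.47 (edgeR adjusted p = 0.0298). For none of the 7 did the floxed and knockout mice separate without overlap, while 31% of tested genes had non-overlapping groups.

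**Figure D1:**
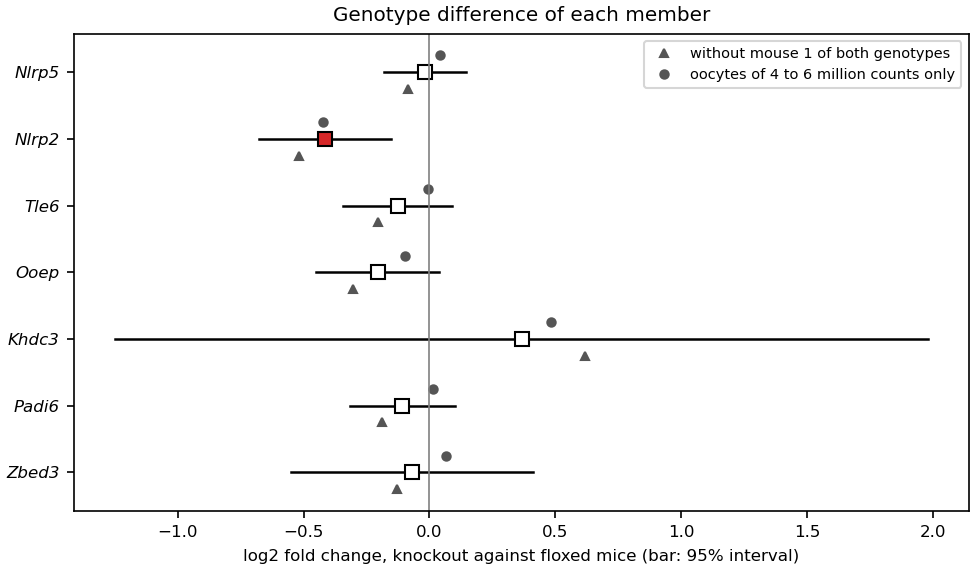
Log2 fold change of each member, knockout against floxed mice; squares with bars are the edgeR estimate and its 95% interval, filled where adjusted p was under 0.05, and grey marks are the estimates without mouse 1 of both genotypes and from oocytes of 4000000 to 6000000 counts. Nlrp2 at −0.42 is the filled square, and the Khdc3 interval runs from −1.25 to 1.98.

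Nlrp2, an NLR-family protein found in the complex, was 439.5 ± 60.5 CPM in floxed mice and 339.0 ± 27.9 CPM in knockout mice (SD, n = 4 mice each). Floxed mice 1 to 4 had 349.7, 477.4, 457.6 and 473.5 CPM, and knockout mice 1 to 4 had 309.3, 323.2, 370.7 and 352.9 CPM. Floxed mice 2 to 4 were above the 4 knockout mice, and floxed mouse 1 lay inside the knockout range. The log2 fold change was −0.42 (SE 0.12, 95% interval −0.68 to −0.15), or 1.33-fold lower, with an edgeR adjusted p of 0.0268. Single oocytes had 309.9 to 515.9 CPM (median 463.2) in the floxed group and 290.9 to 403.4 CPM (median 351.4) in the knockout group, so the ranges overlapped.

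The fold change of Nlrp2 was negative in 18 of 18 alternative analyses (log2 −0.56 to −0.35), and it was called in 15 of them. The call was lost when floxed mouse 2, 3 or 4 was left out, with edgeR adjusted p-values of 0.0758, 0.0644 and 0.0779. Without mouse 1 of both genotypes the log2 fold change was −0.52, with an edgeR adjusted p of 0.000485, in a fit that called 43.9% of genes. Library totals moved with genotype, because the shallowest oocytes were floxed. Within oocytes of 4000000 to 6000000 counts, the Nlrp2 log2 fold change was −0.42 with an edgeR adjusted p of 0.0174. In the mice with the deepest libraries, floxed mouse 3 had a mean of 2506 Nlrp2 counts per oocyte and knockout mouse 3 had 2062. The ratio of Nlrp2 to Nlrp5 CPM was 0.403, 0.485, 0.558 and 0.523 in floxed mice 1 to 4 and 0.339, 0.352, 0.421 and 0.384 in knockout mice 1 to 4. Knockout mouse 3 was above floxed mouse 1 in this ratio, and the other knockout mice were below every floxed mouse.

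Nlrp5 (also called Mater), the NLR-family protein at the core of the complex, was the member with the highest CPM. It was 894.7 ± 69.3 CPM in floxed mice and 907.2 ± 18.4 CPM in knockout mice (SD, n = 4 mice each). The 4 floxed mice had 868.2, 984.3, 820.3 and 906.1 CPM, and knockout mice 1 to 4 had 913.4, 917.6, 879.8 and 917.9 CPM. The knockout values all lay inside the floxed range. The log2 fold change was −0.02 (SE 0.07, 95% interval −0.18 to 0.14; edgeR adjusted p = 0.873), and its sign changed under 5 alternatives.

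Tle6, a relative of the Groucho/TLE co-repressors that takes part in the core with Nlrp5 and Ooep, was 518.0 ± 62.3 CPM in floxed mice and 487.5 ± 32.4 CPM in knockout mice (SD, n = 4 mice each). In floxed mice 1 to 4 the values were 542.7, 589.2, 443.8 and 496.4 CPM, and knockout mice 1 to 4 had 535.5, 474.4, 464.7 and 475.3 CPM. The 4 knockout values fell inside the floxed range. Its log2 fold change was −0.13 (SE 0.10, 95% interval −0.34 to 0.09; edgeR adjusted p = 0.366).

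Ooep (Floped), a KH-domain protein of the core, was 218.5 ± 24.2 CPM in floxed mice and 194.6 ± 20.5 CPM in knockout mice (SD, n = 4 mice each). Mice 1 to 4 of the floxed group had 230.3, 244.8, 189.7 and 209.0 CPM, and knockout mice 1 to 4 had 223.4, 194.9, 178.2 and 181.9 CPM. Knockout mice 3 and 4 were below all floxed mice, and knockout mice 1 and 2 were within their range. The log2 fold change was −0.21 (SE 0.11, 95% interval −0.45 to 0.04; edgeR adjusted p = 0.188). It stayed negative in 18 of 18 alternatives and was called in 0 of them, the lowest adjusted p being 0.0519.

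Padi6, a peptidylarginine deiminase family member required for the cytoplasmic lattices of the oocyte, was 754.7 ± 88.2 CPM in floxed mice and 719.2 ± 38.3 CPM in knockout mice (SD, n = 4 mice each). Floxed mice 1 to 4 had 765.4, 865.7, 652.0 and 735.7 CPM, and knockout mice 1 to 4 had 768.9, 727.8, 681.1 and 699.2 CPM, all inside the floxed range. Padi6 had a log2 fold change of −0.11 (SE 0.09, 95% interval −0.32 to 0.10; edgeR adjusted p = 0.423).

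Zbed3, a zinc-finger protein that binds Axin and is placed in the complex, was 542.9 ± 154.6 CPM in floxed mice and 529.6 ± 127.3 CPM in knockout mice (SD, n = 4 mice each). By mouse number, the floxed group had 728.9, 609.1, 394.8 and 438.9 CPM, and knockout mice 1 to 4 had 711.7, 521.1, 429.3 and 456.5 CPM. In both genotypes mouse 1 was highest, mouse 2 next, and mice 3 and 4 lowest. Zbed3 had a log2 fold change of −0.07 (SE 0.21, 95% interval −0.55 to 0.41; edgeR adjusted p = 0.841), and the wide interval leaves room for changes of either sign.

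Khdc3 (Filia), a KH-domain protein that joins the complex and is known for its role in keeping embryos euploid, varied most between mice. It was 149.8 ± 162.3 CPM in floxed mice and 196.4 ± 164.7 CPM in knockout mice (SD, n = 4 mice each). Floxed mice 1 to 4 had 390.0, 107.5, 50.6 and 51.0 CPM, and knockout mice 1 to 4 had 442.7, 130.4, 101.2 and 111.2 CPM. Mouse 1 was far above the other mice of its genotype in both groups. Its log2 fold change was 0.37 (SE 0.72, 95% interval −1.25 to 1.98; edgeR adjusted p = 0.747). It was −0.47 without knockout mouse 1 (adjusted p = 0.611), 1.37 without floxed mouse 1 (adjusted p = 0.0902) and 0.62 without mouse 1 of both genotypes (adjusted p = 0.111). The sign was positive in 17 of 18 alternatives, and it turned when knockout mouse 1 alone was left out. Khdc3 was called in 1 of the 18, with the mouse number as a replicate block. There its log2 fold change was 0.61 (edgeR adjusted p = 0.0142), in a fit that called 38.7% of genes.

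**Figure D2:**
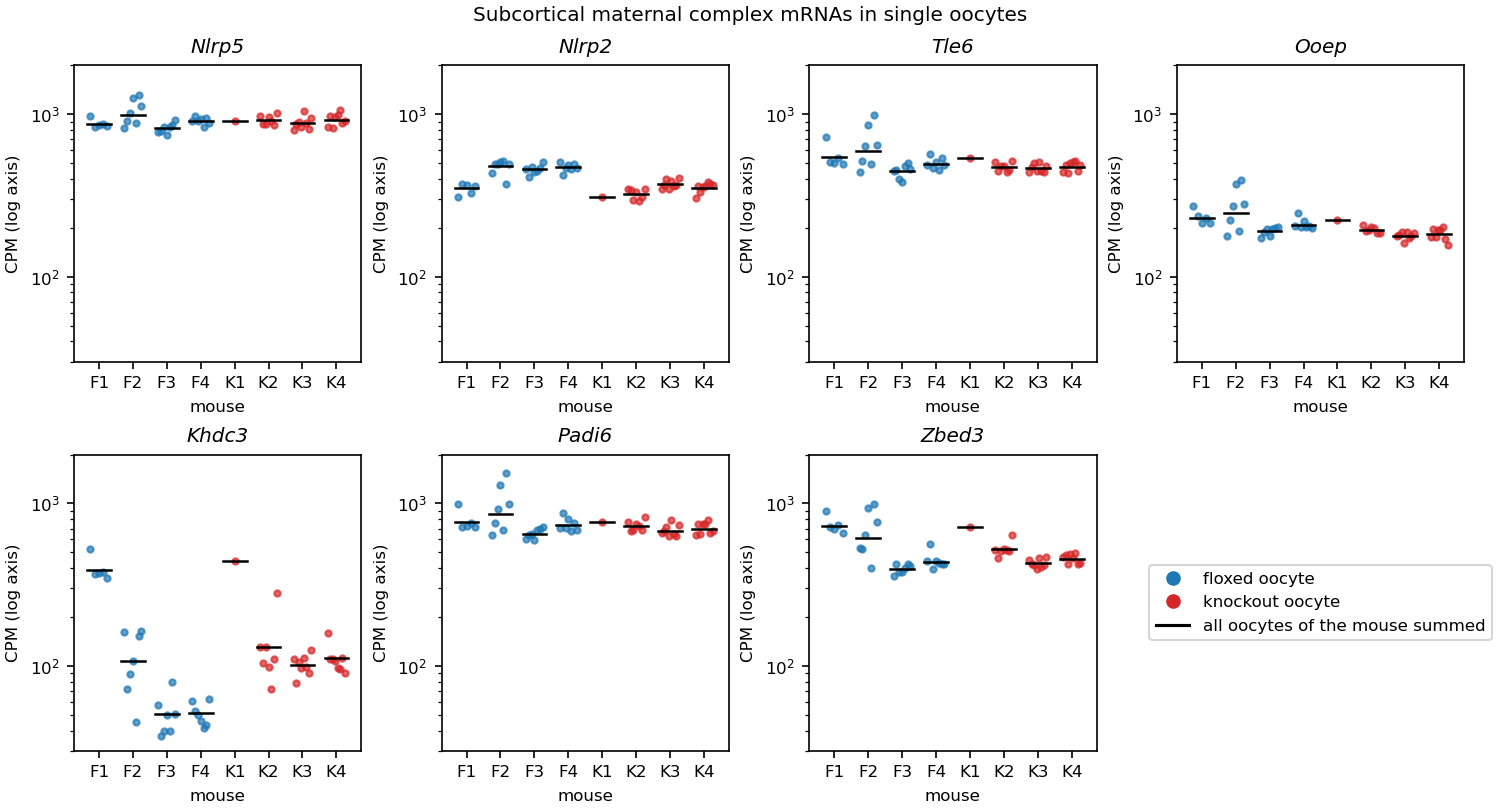
CPM of each member in every oocyte (points, log axis) by mouse, floxed mice F1 to F4 and knockout mice K1 to K4; the line is the CPM of all oocytes of the mouse summed. The Nlrp2 points of F2 to F4 sit mostly above those of the knockout mice, and the Khdc3 points of F1 and K1 sit above those of the other mice.

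The mouse 1 pattern of Khdc3, which was noticed in these values, was seen in each oocyte. The 5 oocytes of floxed mouse 1 had 1479 to 1589 Khdc3 counts, and the 1 oocyte of knockout mouse 1 had 1918. Oocytes of floxed mice 2, 3 and 4 had 203 to 832, 188 to 414 and 169 to 323 counts. Oocytes of knockout mice 2, 3 and 4 had 330 to 1245, 427 to 624 and 421 to 950 counts. No oocyte of mice 2 to 4 reached the lowest count of mouse 1. Khdc3 in floxed mouse 1 was 5.59 times the mean of the other floxed mice, and in knockout mouse 1 it was 3.88 times the mean of the other knockout mice. Of 15029 genes tested, 3.88% were at least 2-fold higher in mouse 1 in both genotypes. Zbed3 was 1.52 times the mean of the others in mouse 1 of both genotypes, while Nlrp2 was lower in mouse 1, by 1.34 times in the floxed and 1.13 times in the knockout group. Nlrp5 in mouse 1 lay within the range of the others in both genotypes. The labels do not say that a mouse number marks a shared litter, day or batch.

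Compared per length, the members fell into 2 levels. Mean CPM per kb of the longest annotated transcript was 315.9 for Padi6, 275.7 for Zbed3, 256.8 for Nlrp5 and 249.5 for Tle6, which ranked 16, 42, 51 and 62 among 14968 genes with a length. Nlrp2 (114.4), Khdc3 (103.0) and Ooep (96.6) ranked 602, 779 and 893. The step from Tle6 to Nlrp2 held in 8 of 8 mice, with a ratio of 2.18, and the mouse ranges of these neighbours did not overlap. All other neighbours in this order overlapped in their mouse ranges. Khdc3 was above Nlrp2 in the 2 mice numbered 1 and below it in the other 6. The order depends on the transcript length chosen: with the median annotated transcript length the level rose to 1136 CPM per kb for Padi6, 804.4 for Tle6 and 521.8 for Nlrp2, and moved by less than 1.5 times for the other 4. Summed over the 7 members, the complex made up 0.352 ± 0.0432% of counts in floxed mice and 0.337 ± 0.0362% in knockout mice (SD, n = 4 mice each), with overlapping values.

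**Figure D3:**
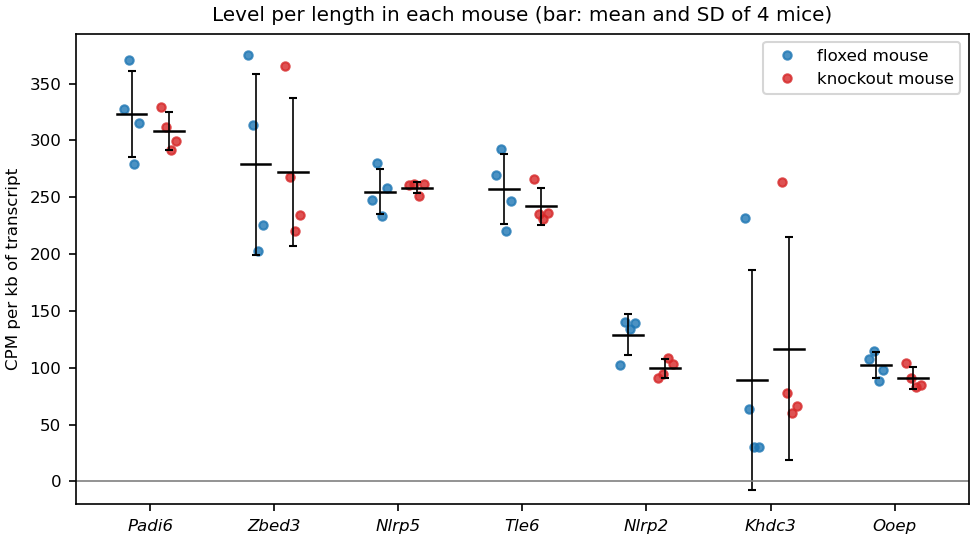
CPM per kb of the longest annotated transcript for each member in each mouse (points), with the mean and SD of 4 floxed (blue) and 4 knockout (red) mice. Padi6, Zbed3, Nlrp5 and Tle6 lie above Nlrp2 in every mouse, and Khdc3 has the widest SD for its mean, the lower bar of its floxed group passing below 0.

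The annotation places the members on 5 chromosomes of mm10, with Nlrp5 and Nlrp2 far apart on chromosome 7 and Ooep and Khdc3 on chromosome 9. Nlrp5 (ENSMUSG00000015721) spans chr7:23385889-23441922 on the plus strand with 16 exons, and Nlrp2 (ENSMUSG00000035177) spans chr7:5298547-5351035 on the minus strand with 12. Tle6 (ENSMUSG00000034758) spans chr10:81590904-81601073 (−, 14 exons) and Padi6 (ENSMUSG00000040935) spans chr4:140727355-140742643 (−, 16 exons). Ooep (ENSMUSG00000032346) spans chr9:78376109-78378725 (−, 3 exons) and Khdc3 (ENSMUSG00000092622) spans chr9:73101836-73104438 (+, 3 exons). Zbed3 (ENSMUSG00000041995) spans chr13:95323612-95337841 (+, 2 exons). Among the nearest tested neighbours, Zfp180 and Vmn1r58 were called, where 27.6% of all genes tested were called. Zfp180, 640.0 kb beyond Nlrp5, rose from 4.34 to 15.3 CPM (log2 fold change 1.78, edgeR adjusted p = 0.00332), and Vmn1r58, 50.6 kb beyond Nlrp2, was at 0.985 and 0.317 CPM (edgeR adjusted p = 0.0457). The other 12 neighbours were not called, among them Tle2 next to Tle6, Dppa5a next to Ooep, Padi4 and Rcc2 next to Padi6, and Nlrp4e next to Nlrp5. Khdc3 shares 327 exon bases with the overlapping same-strand model Gm20509, which is not a row of the table, so the split of reads between them is not known.

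Within mice, counts of the members other than Nlrp2 rose less with library depth than those of most genes averaging at least 10 CPM. Over 49 oocytes of the 7 mice with 5 or more oocytes, the slope relating log2 count to log2 library total was 0.27 for Padi6, 0.30 for Zbed3, 0.35 for Tle6, 0.36 for Ooep and 0.57 for Nlrp5. The median slope over 9704 genes averaging at least 10 CPM was 1.17, and 0.866% of them (Padi6) to 7.36% (Nlrp5) had a lower slope than these 5 members. Nlrp2 had a slope of 1.09 and Khdc3 0.59. Pearson r between CPM (as deviation from the mouse mean) and library total was −0.97 for Padi6, −0.95 for Ooep, −0.93 for Zbed3, −0.92 for Tle6 and −0.88 for Nlrp5, but 0.23 for Nlrp2 and −0.28 for Khdc3. These points share the library total as denominator, and no p is given. The tie to depth was not particular to the complex. Gdf9 and Zp3, named below as like Padi6, had r of −0.98 each. The highest CPM of each of those 5 members was in an oocyte of floxed mouse 2, whose libraries went down to 1746007 counts.

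**Figure D4:**
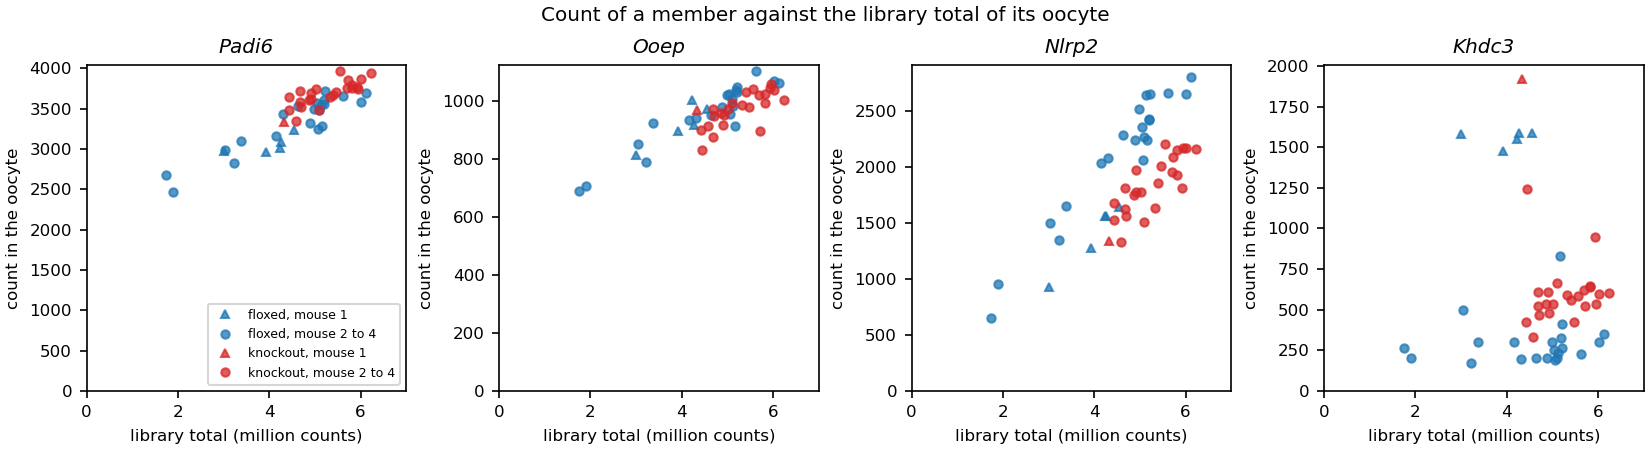
Counts of Padi6, Ooep, Nlrp2 and Khdc3 in each oocyte against the library total of the oocyte, with mouse 1 of each genotype as triangles. Padi6 and Ooep counts grow slowly with the total, Nlrp2 counts grow in proportion with knockout points mostly below floxed points, and Khdc3 counts of mouse 1 stand apart.

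The spread of a member between oocytes of one mouse differed between mice. The median SD of log2(CPM + 1) over the 7 mice was 0.0997 for Nlrp2, 0.103 for Nlrp5, 0.105 for Ooep, 0.115 for Tle6, 0.120 for Padi6 and 0.145 for Zbed3. The median gene averaging at least 10 CPM had 0.284, and these genes were not matched to the members in abundance. Floxed mouse 2 was the exception, with SDs of 0.26 for Nlrp5, 0.43 for Tle6, 0.44 for Ooep, 0.47 for Padi6 and 0.48 for Zbed3, and 0.17 for Nlrp2. Khdc3 had 0.249, with 0.69 in floxed mouse 2 and 0.60 in knockout mouse 2. For the 5 members that followed depth, most of this spread went with the library total: its share of the variance was 94.8% for Padi6, 89.9% for Ooep, 86.8% for Zbed3, 85.3% for Tle6 and 76.9% for Nlrp5. The share was 5.20% for Nlrp2 and 7.78% for Khdc3, beside 7.03% for the median gene.

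Among the 21 pairs of members, the 10 pairs of Nlrp5, Tle6, Ooep, Padi6 and Zbed3 had r of 0.79 to 0.96 over 49 oocytes (median 0.88). With the library total removed as well, the same pairs had r of −0.13 to 0.70 (median 0.04). After this step Nlrp5 with Padi6 was at 0.70 and Tle6 with Padi6 at 0.65. The 6 pairs with Nlrp2 had r of −0.29 to 0.11 before and −0.22 to 0.66 after, the highest being Nlrp5 with Nlrp2. The 5 pairs of Khdc3 with members other than Nlrp2 had r of 0.22 to 0.55 before and −0.14 to 0.83 after. The highest of all pairs after this step was Khdc3 with Zbed3, at 0.55 before and 0.83 after. Before it, the r of this pair was positive in 7 of 7 mice (0.074 to 0.98). Other pairs were too, such as Nlrp5 with Padi6 (0.85 to 0.99). The r of single mice was not computed after the step. These r are descriptions over oocytes that share mice and library totals.

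**Figure D5:**
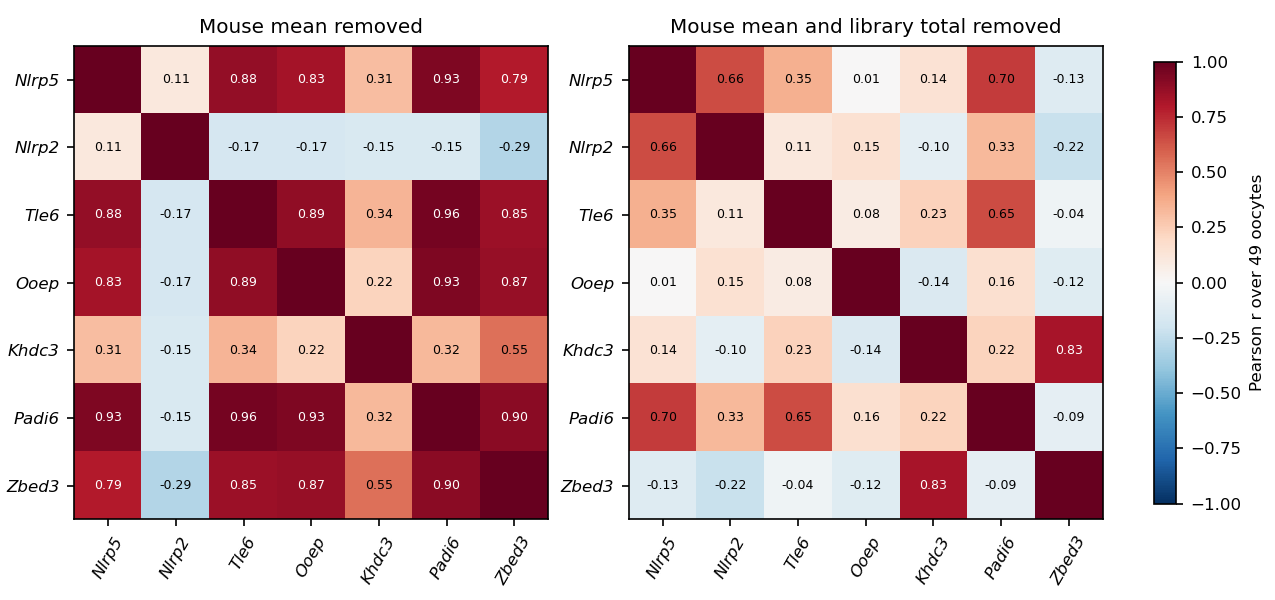
Pearson r between members over 49 oocytes of 7 mice, as deviations from the mouse mean (left) and with the library total removed as well (right). On the left, 5 members form a block of r between 0.79 and 0.96; on the right, Khdc3 with Zbed3 is the highest pair at 0.83.

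For each member the 3 genes most like it in these deviations were named by a fixed rule. Padi6 followed Gdf9 (r = 0.99), an oocyte growth factor, Ldhb (0.99), a lactate dehydrogenase subunit, and Zp3 (0.99), a zona pellucida protein. Nlrp5 followed Zp2 (0.95), Gdf9 (0.92) and Bpgm (0.91), and Tle6 followed Tacc3 (0.96), Gdf9 (0.95) and Tubb4b (0.95). Ooep followed Fbxw28, Glrx and Obox1 (0.97 each), and Zbed3 followed Parl (0.94), Zfp57 (0.94) and Tor1a (0.93). These like genes had r of −0.99 to −0.88 with the library total. Nlrp2 was most like Naa20 (0.70), Rnf14 (0.69) and Hsp90b1 (0.65), and Khdc3 was most like Rps2 (0.86), Pdcd2l (0.86) and Ppp4c (0.83). The genes most like Nlrp2 and Khdc3 were less tied to depth, with r of 0.27 to 0.38 and −0.42 to −0.29. Rps2 and Obox1 have close copies in the genome, so their counts are uncertain.

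Khdc3 and Zbed3 had the highest r of all pairs once the library total was removed. Their promoters are printed with that of Nlrp2, the member called as lower. Each is the RefSeq window of 250 bases before to 50 after the start (GRCm38.p6), for which all 7 members had at least 1 entry. The Khdc3 window is chr9:73102148-73102447 (+), the first of 3 Zbed3 windows is chr13:95323355-95323654 (+), and the Nlrp2 window is chr7:5350986-5351285 (−). A pair of motifs was searched on both strands and is in capitals: CANNTG, the E-box letters read by FIGLA and other bHLH factors, and TAATTG or TAATTA, letters of the element read by the oocyte factor NOBOX. Khdc3 held 5 CANNTG matches, of which a pair overlap, the first Zbed3 window held 3 and Nlrp2 held none. The other Zbed3 windows, not printed, held 1 each, and the median RefSeq promoter held 1. TAATTG and TAATTA were in none of the 3 printed windows. Over 32851 RefSeq promoters, 72.3% held CANNTG and 12.4% held TAATTG or TAATTA. A match says only that the letters are there.
Khdc3: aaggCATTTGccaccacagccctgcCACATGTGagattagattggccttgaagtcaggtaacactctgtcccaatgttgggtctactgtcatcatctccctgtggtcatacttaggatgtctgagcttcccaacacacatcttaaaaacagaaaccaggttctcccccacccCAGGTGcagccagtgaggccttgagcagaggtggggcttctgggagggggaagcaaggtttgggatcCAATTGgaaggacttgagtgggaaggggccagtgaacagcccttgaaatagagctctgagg
Zbed3: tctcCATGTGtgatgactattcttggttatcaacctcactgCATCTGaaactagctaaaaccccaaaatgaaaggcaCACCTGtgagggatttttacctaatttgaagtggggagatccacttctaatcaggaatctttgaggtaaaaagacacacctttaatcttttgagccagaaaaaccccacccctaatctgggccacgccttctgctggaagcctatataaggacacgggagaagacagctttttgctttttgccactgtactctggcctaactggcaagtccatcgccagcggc
Nlrp2: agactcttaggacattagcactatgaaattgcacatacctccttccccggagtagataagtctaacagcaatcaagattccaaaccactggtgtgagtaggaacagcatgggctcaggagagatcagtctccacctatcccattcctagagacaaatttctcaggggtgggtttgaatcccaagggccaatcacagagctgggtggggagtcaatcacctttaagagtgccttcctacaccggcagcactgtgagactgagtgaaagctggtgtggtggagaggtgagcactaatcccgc

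Among genes whose proteins have been reported with the complex, such as the YWHA adaptor proteins, Uhrf1 and Nlrp14, 1 of 13 tested fell and 0 rose (7.69% called, beside 27.6% of all genes). The median log2 fold change of these associates was −0.09, beside −0.0059 over all genes and −0.08 over genes averaging at least 100 CPM. Most of the associates were near or above that level. The 1 was Nlrp4f, an NLR-family member found in the complex, with a mean of 736.9 ± 69.3 CPM over the floxed and 601.0 ± 6.34 CPM over the knockout mice (SD, n = 4 each). The log2 difference was −0.33 ± 0.08 (SE; adjusted p = 0.0179 by edgeR) and its groups did not overlap, but the call was lost without floxed mouse 2 (adjusted p = 0.0507) or 4 (0.0574). With 1 mouse left out, the count of lower associates was 2 without floxed mouse 1, 3 without knockout mouse 1, and 0 to 1 otherwise. Nlrp genes share close sequence, so reads may be split between them.

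Of the oocyte NLR relatives of Nlrp5 and Nlrp2, 1 of 10 tested was higher and 2 were lower, and the 30% called is near the 27.6% of all genes. Their median log2 fold change was −0.16. Nlrp4c rose 2.25-fold, from 68.3 ± 12.6 to 158.0 ± 21.2 CPM (edgeR adjusted p = 0.000925). Nlrp4f fell, as above, and Nlrp9b fell 1.23-fold, from 550.4 ± 56.7 to 462.0 ± 28.0 CPM (edgeR adjusted p = 0.0468). The Nlrp9b call was lost without floxed mouse 2, 3 or 4 or knockout mouse 3 (adjusted p of 0.0682 to 0.124). The count of lower relatives was 4 without floxed mouse 1, 1 without floxed mouse 3 or knockout mouse 3, and 0 without floxed mouse 2 or 4; that of higher relatives was 2 without knockout mouse 1. Of 6 immune NLR genes tested, 1 rose, Nod2, a sensor of bacterial peptidoglycan, from 10.1 ± 2.47 to 23.7 ± 4.54 CPM (edgeR adjusted p = 0.00747), and the count was 2 without knockout mouse 1.

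Sequence relatives of the other members gave 1 call per family or none, in families of 3 or 4 tested genes and beside 27.6% called over all genes. Of the 4 Khdc1 and Dppa5a relatives of Khdc3 and Ooep, 0 were called at adjusted p; Khdc1b was 607.0 ± 39.0 and 540.3 ± 21.1 CPM (edgeR adjusted p = 0.0601) and Khdc1a was 165.6 ± 4.63 and 139.0 ± 35.04 CPM (edgeR adjusted p = 0.216). In that family 1 gene was called lower without floxed mouse 1 or 3, and 2 without knockout mouse 1. Padi1, of the 4 other Padi genes, fell from 5.19 ± 0.958 to 2.42 ± 0.909 CPM (edgeR adjusted p = 0.0426), and its call was lost without floxed mouse 1, 2, 3 or 4 or knockout mouse 2 or 3 (adjusted p of 0.0615 to 0.112). Tle4, of 4 TLE genes tested, rose 1.53-fold, from 52.7 ± 8.45 to 82.4 ± 13.1 CPM (edgeR adjusted p = 0.0217), and was not called without floxed mouse 2 or 4 or knockout mouse 2 or 3 (adjusted p of 0.0599 to 0.0773). The TLE count was 2 without floxed mouse 1 or knockout mouse 4. Zbed4, of 3 ZBED genes, rose 1.65-fold, from 78.9 ± 9.66 to 133.7 ± 14.7 CPM (edgeR adjusted p = 0.00284).

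The complex acts on actin through cofilin, and genes of cofilin and actin turnover had 4 of 15 tested higher and 1 lower. That is 33.3% called beside 27.6% of all genes (14.4% higher, 13.2% lower), with a median log2 fold change of 0.07. Rock2, a kinase upstream of LIM kinase, rose 1.61-fold, from 57.4 ± 5.71 to 94.8 ± 5.97 CPM (edgeR adjusted p = 0.00324). Cap1, a cyclase-associated protein that recycles actin, rose 2.28-fold, from 9.32 ± 1.96 to 21.9 ± 2.87 CPM (edgeR adjusted p = 0.00526). Pak1, a kinase that activates LIM kinase, fell 1.42-fold, from 303.2 ± 26.4 to 219.1 ± 24.5 CPM (edgeR adjusted p = 0.00921). Dstn, a cofilin relative, rose from 141.6 ± 14.2 to 176.9 ± 9.84 CPM (edgeR adjusted p = 0.0325), and its call was lost without floxed mouse 2, 3 or 4 or knockout mouse 2, 3 or 4 (adjusted p of 0.0747 to 0.180). The count of higher genes was 2 without floxed mouse 2, 3 or 4 or knockout mouse 2 or 3; that of lower genes was 3 without floxed mouse 1 and 2 without knockout mouse 1. Of 12 Wnt genes around the Zbed3 partner Axin, 1 rose (8.33% called), Dvl1, from 7.29 ± 2.62 to 14.8 ± 1.11 CPM (edgeR adjusted p = 0.0232). The Dvl1 call was lost without floxed mouse 2, 3 or 4 or knockout mouse 2, 3 or 4 (adjusted p of 0.0531 to 0.0800), and 1 Wnt gene was called lower without floxed mouse 1 or knockout mouse 1.

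Other maternal-effect genes, which like the complex act in the embryo from the egg, had 2 of 30 tested higher and 6 lower. The 26.7% called is about the 27.6% of all genes, and the median log2 fold change was −0.11. Kdm1b, a histone demethylase needed for imprinting in oocytes, rose 1.70-fold, from 247.7 ± 28.7 to 431.5 ± 29.0 CPM (edgeR adjusted p = 0.000790). Cdh1 (E-cadherin) rose 1.36-fold, from 215.9 ± 11.2 to 300.8 ± 12.8 CPM (edgeR adjusted p = 0.00237). Sebox, an oocyte homeobox gene, fell 1.504-fold, from 168.4 ± 6.42 to 115.2 ± 12.9 CPM (edgeR adjusted p = 0.00334), and Zar1l fell 1.31-fold, from 196.9 ± 14.6 to 154.3 ± 16.5 CPM (edgeR adjusted p = 0.0178). The Zar1l call was lost without floxed mouse 2 (adjusted p = 0.0504) or 4 (0.0544). The count of lower genes was 1 without floxed mouse 2 or 4 and 3 without knockout mouse 3 or 4.

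Oocyte transcription factors, some of which are known to switch on oocyte genes, had 3 of 9 tested higher and 0 lower. That is 33.3% called beside 27.6% of all genes (14.4% higher, 13.2% lower), with a median log2 fold change of 0.32. This list, Gcm2 included, was chosen with earlier results of these data known, so its share is a description only. Whether Gcm2 acts in oocytes was not tested. Figla, a bHLH factor required for zona pellucida genes, rose 1.63-fold, from 50.2 ± 8.61 to 83.7 ± 8.14 CPM (edgeR adjusted p = 0.00618). Gcm2 rose 5.48-fold, from 38.3 ± 8.91 to 214.4 ± 14.3 CPM (edgeR adjusted p = 0.000116), and Sohlh2 rose 2.31-fold, from 11.9 ± 0.819 to 28.1 ± 10.1 CPM (edgeR adjusted p = 0.0101). Without knockout mouse 4, 1 factor was called lower.

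Some markers of other cell types moved with genotype, where 27.6% of all genes tested were called. Of 9 fixed stroma and endothelial markers, only 4 were tested, and 1 of these was called lower (25%). They summed to 114.8 to 214.3 CPM in floxed and 39.5 to 56.1 CPM in knockout mice. Most of this was Pecam1, whose floxed mean was as high as that of Khdc3, at 150.4 ± 39.9 and 27.0 ± 8.08 CPM (SD, n = 4 mice each; edgeR adjusted p = 0.000487). Tek was at 29.3 and 19.5 CPM (edgeR adjusted p = 0.0926) and Pdgfra at 1.43 and 0.895 CPM. Acta2 went the other way, at 0.694 and 1.19 CPM, and was not called. Whether the Pecam1 counts came from endothelial cells was not tested. The count of lower stroma and endothelial markers was 2 without floxed mouse 1 or knockout mouse 1. Cumulus and granulosa markers summed to 166.7 to 240.5 and 165.5 to 299.96 CPM. Of 13 tested, 1 was called lower (7.69%), Cyp11a1, at only 3.88 and 0.0337 CPM (edgeR adjusted p = 0.00245). The median log2 fold change of these 13 markers was 0.20. Of them, 1 was called higher without floxed mouse 1 and 2 without knockout mouse 1. The 3 blood and immune markers tested, led by Cd68 at 8.48 and 3.40 CPM (edgeR adjusted p = 0.0564) and Csf1r at 1.52 and 0.322 CPM (edgeR adjusted p = 0.103), summed to 6.71 to 14.0 and 2.31 to 7.19 CPM. Of these, 1 was called lower without floxed mouse 1 and 2 without knockout mouse 3. No marker in the table was at 0 in every mouse. Of 9 oocyte markers, 1 fell, Mos, the kinase that sustains meiotic arrest after ovulation, at 314.6 ± 19.5 and 258.6 ± 17.0 CPM (edgeR adjusted p = 0.0159). The Mos call was lost within oocytes of 4000000 to 6000000 counts (log2 fold change −0.21, edgeR adjusted p = 0.0606). The part of all these markers in the Nlrp2 difference was not tested.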

How the data were processed

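The authors deposited 1 table of unscaled read counts, whole numbers per gene with 1 column per oocyte. STAR and the build mm10 are named in the submitters' processing notes; its version, the counter and the treatment of reads with several matches are not given in the sources used. The labels' protocols name Trizol for RNA and a SMARTer Ultra Low Input kit for cDNA, which is amplified by PCR, so copies are not independent molecules and intervals cover counting and mouse-to-mouse error alone. The table had 0 columns without a sample. For oocyte 8 of knockout mice 2, 3 and 4, the labels give a column header without the oocyte number. These columns were matched through the sample titles.

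Oocyte counts were summed per mouse and tested in R 4.3.3 with edgeR 4.0.16 (TMM factors, filterByExpr with a minimum count of 10, robust quasi-likelihood test, Benjamini-Hochberg adjusted p under 0.05, 15029 genes). Same-mouse oocytes differed beyond counting noise in 150 of 150 pairs (chi-square per degree of freedom 5.06 to 25.7), so none was taken as a copy of another. Oocyte deviations used log2(CPM + 1). Annotation is GENCODE for mm10, matched for 16536 of 16614 rows; promoters are RefSeq's. Alternatives used DESeq2 1.42.0, limma 3.58.1, other scalings and filters, and left-out mice. Named genes were the 7 members, up to 4 called genes of smallest p per list (otherwise the 2 of highest CPM), 3 like genes per member, and nearest neighbours, leaving out unnamed models. The members and lists were chosen with earlier results of these data known.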

Additional observations from a re-analysis of the deposited data

Results flagged for a closer look

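A lone extreme value was looked for in 63 groups of 4 to 8 values by Dixon's criterion at the 95% level. Of these groups, 13 had one, where chance gives about 1 group in 20. Groups of the same oocytes or mice are not independent of each other. Over mice, Khdc3 was highest in floxed mouse 1 (390.0 CPM) and in knockout mouse 1 (442.7 CPM). Nlrp2 was lowest in floxed mouse 1 (349.7 CPM), Tle6 was highest in knockout mouse 1 (535.5 CPM), and Nlrp5 was lowest in knockout mouse 3 (879.8 CPM).

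Among oocytes of floxed mouse 1, oocyte 5 stood above the others for Khdc3 (527.8 against 348.9 to 377.0 CPM), Tle6 (726.6 against 493.9 to 540.6 CPM) and Padi6 (993.8 against 711.1 to 756.0 CPM). That oocyte had the lowest library total of its mouse, 2997631 counts. Oocyte 2 of floxed mouse 4 stood above the others for Ooep (245.0 against 200.3 to 218.8 CPM) and Zbed3 (561.1 against 392.8 to 444.8 CPM). Oocyte 8 of knockout mouse 2 stood above the others for Khdc3 (280.6 against 72.0 to 130.6 CPM) and Zbed3 (640.6 against 458.1 to 522.6 CPM). Oocyte 1 of knockout mouse 4 stood above the others for Khdc3 (160.2 against 90.9 to 111.2 CPM).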

How the results depend on the processing

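Over all genes, the number called moved with single mice: 1359 to 2538 higher and 1219 to 2822 lower with 1 mouse left out, and 3549 lower without mouse 1 of both genotypes. Of the members, 0 to 1 was called lower with 1 mouse left out. Of the 126 member fold changes under alternatives, 12 changed sign, and none of these 12 was called. Nlrp5 was at 0.0051 with limma, 0.043 in oocytes of 4000000 to 6000000 counts, 0.034 with TMM factors from abundant genes and 0.043 with mean oocyte total as a covariate. The covariate also gave 0.0070 for Tle6, 0.016 for Padi6 and 0.23 for Zbed3, and that window of totals gave 0.016 for Padi6 and 0.064 for Zbed3. With 1 mouse left out, Nlrp5 ranged from −0.086 to 0.031, Khdc3 from −0.47 to 1.37 and Zbed3 from −0.30 to 0.039. The depth window, the covariate and the abundant-gene factors were chosen after seeing the data. The cause of these changes was not tested. The labels do not say whether the mouse number pairs the samples, and this was not settled here. Same-number correlations were 0.317, −0.0034, 0.248 and 0.181, and different-number correlations ran from −0.287 to 0.192. Used as a replicate block, the mouse number called 38.7% of genes, beside 27.6% without it. That fit called 1 member as higher, Khdc3 (log2 0.61, edgeR adjusted p = 0.0142).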
